A study of Mus musculus with 12 samples.

Results

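Replication-dependent histone genes encode the histones that package newly made DNA. H2A, H2B, H3 and H4 form the core of the nucleosome, and the linker histone H1 binds the DNA between nucleosomes. Their transcripts, made mainly in S phase from clusters of genes without introns, end in a conserved stem-loop instead of a poly(A) tail. The stem-loop is bound by the protein *Slbp*, which takes part in 3′ end processing, translation and decay of these mRNAs.

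The genes described here were chosen by symbol and by measured level. A member is a gene whose symbol begins with Hist1h, Hist2h, Hist3h or Hist4h and which either had a mean of at least 10 normalized counts over the 6 mRNA libraries or is listed in the table of ribosome-protected fragments (RPF). Of 70 such symbols in the mRNA table, 51 were members, out of 41255 genes in all. They were 6 H1, 10 H2A, 15 H2B, 10 H3 and 10 H4 genes. The mRNA limit was met by 12 members and the RPF table listed 50, so that 39 members entered through footprints alone and *Hist1h2bc* through mRNA alone. Close to the limit, mean mRNA was 10.1 normalized counts for *Hist1h2ae*, 11.0 for *Hist1h1a* and 16.1 for *Hist1h2bg* on the inside, and 8.36 for *Hist1h4d*, 6.44 for *Hist4h4* and 5.57 for *Hist1h3d* on the outside. The last 3 genes are members through their footprints.

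The libraries came from Ba/F3, an established mouse lymphoid cell line. Both genotypes carried a retroviral vector with human *RPL10* cDNA, which encodes a protein of the large ribosomal subunit, and an shRNA against endogenous *Rpl10*; the vector encoded either *RPL10 WT* (clones 28, 29 and 36) or *RPL10 R98S* (clones 11, 13 and 35). Each clone was a monoclonal culture grown from a single cell, so that differences between clones are included in every comparison of 3 R98S with 3 WT clones, and all cultures received cycloheximide (100 μg/ml, 5 min) before RPF and mRNA libraries were made. The mRNA libraries were poly(A) selected and held 20576796 to 23136595 reads, except WT clone 28 with 6617457, in which 1 read equals 2.69 normalized counts. The footprint libraries held 3477723 to 10883086 reads and were made without poly(A) selection. Of the blood cell markers examined in the mRNA, 5 of 6 haematopoietic genes had a mean of at least 10 normalized counts (*Kit* was at 0), but only 2 of 10 early B-cell genes did, with *Pax5* and *Rag1* at 0 in every library; the summed haematopoietic markers were 100455 to 122010 in R98S and 48041.5 to 93846.1 in WT clones. That sum was mostly *Csf2rb* and *Csf2rb2*, while the mean mRNA of *Ptprc* was 4393 in R98S and 8109 in WT clones. The mast cell and basophil markers summed to 12613 to 15951 in R98S and 20544 to 26658 in WT clones, the early B-cell markers to 1351 to 1672 and 896 to 1157, and the T-cell markers to 139 to 149 and 59.4 to 77.9, each without overlap. The mast cell and basophil sum was mostly *Gata2* (mean 13844 in R98S and 22811 in WT clones). Other genes of that list had higher means in R98S clones: *Cpa3* (561 and 80.8), *Hdc* (213 and 98.6), *Mcpt8* (72.3 and 29.7) and *Ms4a2* (73.3 and 40.5). Of these, only *Cpa3* was without overlap. The T-cell sum was mostly *Cd3d* (60.2 and 14.1) and *Lck* (74.5 and 35.1), whereas *Tcf7* was lower in R98S clones (3.03 and 9.81), without overlap. *Rag2* of the early B-cell list was also lower (0.273 and 1.95), without overlap but with few reads. The erythroid markers summed to 1243 to 1925 in R98S and 1474 to 2957 in WT clones, with *Hba-a1* lower in R98S clones (2.99 and 78.3), without overlap. The part of these differences in any result was not tested.

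The 3′ stem-loop is the sequence feature that the members share and that the rule did not use. In the 150 bases after the stop codon, on the strand of the gene, the pattern GGNNNTNTNNANNNCC with its 6 outer bases on each side able to pair (A with T, G with C or T) was found in 45 of 51 members, against 73 of 21629 protein-coding genes (0.338%) in the GENCODE annotation of GRCm38. The stem-loop began 21 to 55 bases after the stop codon, with a median of 30. Only 6 distinct versions of the 16 bases occurred among the members. The following genes were chosen because each shows a version or carries a result described later; the 16 stem-loop bases are in capitals, with 5 flanking bases on each side.
Hist1h1c: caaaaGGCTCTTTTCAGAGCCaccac
Hist1h2bc: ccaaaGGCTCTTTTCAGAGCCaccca
Hist1h3e: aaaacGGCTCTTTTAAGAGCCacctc
Hist2h2ac: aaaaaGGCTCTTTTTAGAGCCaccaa
Hist4h4: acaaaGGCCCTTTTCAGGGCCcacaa
Hist1h4i: ttaaaGGCCCTTTTTAGGGCCaccac
Hist1h4j: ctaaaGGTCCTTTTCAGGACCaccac
H2afx: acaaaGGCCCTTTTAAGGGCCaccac
The printed sequence of *Hist1h1c* lies at chr13:23739507-23739532 (plus strand), that of *Hist1h2bc* at chr13:23684642-23684667 (plus strand), that of *Hist1h3e* at chr13:23561898-23561923 (minus strand), that of *Hist2h2ac* at chr3:96220413-96220438 (minus strand) and that of *Hist4h4* at chr6:136803993-136804018 (minus strand). Those of *Hist1h4i* and *Hist1h4j* are at chr13:22040961-22040986 (minus strand) and chr13:21735432-21735457 (plus strand). All lie in the 3′ flank of the coding sequence, within the annotated 3′ UTR for these members. The version of *Hist1h1c* was shared by 26 members, among them all 5 abundant H1 genes, and that of *Hist1h3e* by 9 members of classes H1, H2A, H2B and H3. The version of *Hist4h4* was found in 6 members, all H4, and that of *Hist1h4i* in 2, the other being *Hist2h4*. No match was found in this window for *Hist1h2an*, *Hist1h2bp*, *Hist1h3g*, *Hist1h4a* and *Hist2h2be*, or for *Hist1h2al*, which the annotation lists as a processed pseudogene without a coding sequence. Only the longest annotated coding sequence of each gene was used. For *Hist1h2bp* it has 2 exons and 414 bases, so that its missing match holds only for that stop codon. *H2afx*, shown last, is not a member: it encodes a histone variant made outside S phase as well, and its match lies at chr9:44335235-44335260 (plus strand).

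Histone genes had many footprints and few mRNA reads. The median member had 1.98 normalized mRNA counts over the 6 clones, against 780 for all 10080 genes of the RPF table, whereas its median RPF was 393 against 225. All 10 genes of the table with at least 1000 normalized RPF counts and under 10 mRNA counts were members, as were 27 of the 41 with at least 100 RPF and under 10 mRNA counts. These comparisons use the levels by which the members were chosen and are given as a description. Of the members, 3 (*Hist1h2aa*, *Hist1h2al* and *Hist2h2bb*) were at 0 in every mRNA library; *Hist2h2bb*, an H2B gene, nevertheless had 356 to 475 normalized RPF counts per R98S clone and 343 to 540 per WT clone. Its exons overlap *Gm42743* over 226 bases on the same strand and *Gm20628* over all 381 of their bases on the opposite strand. The part of these overlaps in its counts was not tested.

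The log2 ratio of RPF to mRNA, with 1 added to each value, summarizes this contrast. Its scale is relative, since the tables were normalized separately, and low mRNA counts limit it. The members' median was 7.23 and that of all genes -1.66, a difference of 8.90; within single clones the difference was 7.92 (R98S clone 11) to 9.30 (WT clone 36). Between 42 and 47 of the 50 members in the RPF table were in the highest 1% of all ratios in any one clone. The 15 highest mean ratios in the table all belonged to members, and the 100 highest included 46 members, which is 46% of that list and 92% of the members. By class, the median ratio was 9.71 for H1, 8.52 for H4, 7.40 for H3, 6.92 for H2B and 6.22 for H2A. *Hist1h1a*, a linker histone gene, had the highest mean ratio of all genes, 10.11 on the log2 scale.

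**Figure D1:**
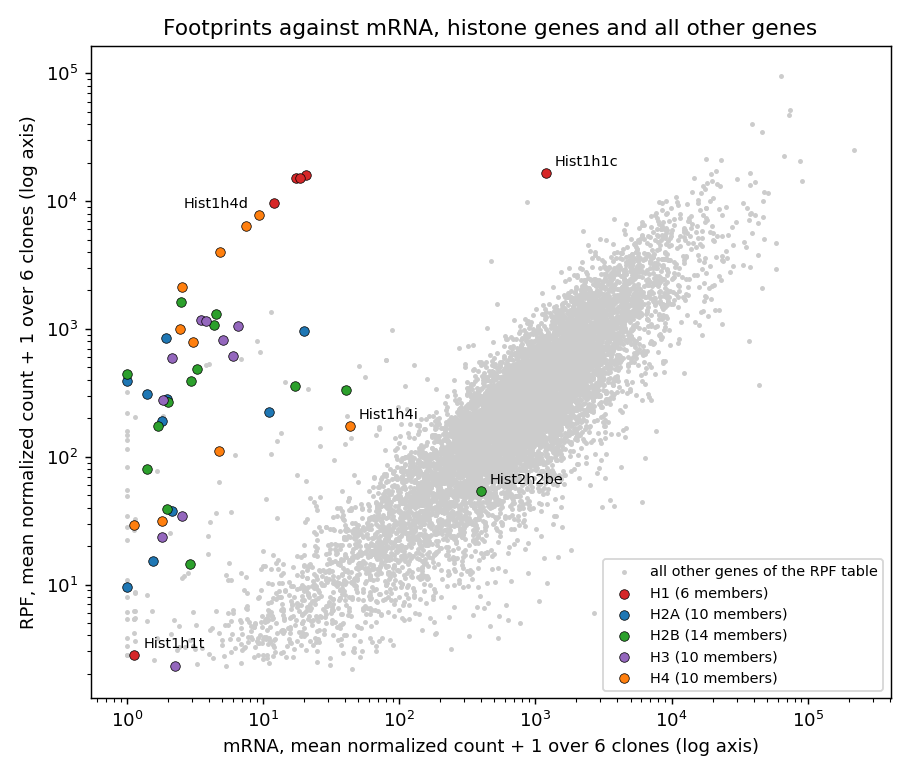
Mean normalized mRNA (x axis) and RPF (y axis) counts over 6 clones, each plus 1 and on log axes, for the 10080 genes of the RPF table; coloured points are the 50 members by class. Most members lie to the left of the other genes, with few mRNA counts for their footprints, while Hist2h2be lies among the other genes.

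*Hist2h2be*, an H2B gene, was the only member with a mean ratio below the median of all genes (-2.80 on the log2 scale; 15.18% of genes were lower). Its normalized mRNA counts were 653, 438 and 457 for R98S clones 11, 13 and 35 but 293, 306 and 226 for WT clones 28, 29 and 36, whereas its RPF lay between 43.7 and 58.0 in all 6 clones. It was also among the 6 members without a stem-loop match in the 150 bases searched, and its longest annotated 3′ UTR has 2192 bases. Of the 12 members with at least 10 mRNA counts, 10 had an annotated 3′ UTR of at least 150 bases (median of the longest 811), compared with 15 of the 38 annotated others (median 93.5). Under 50% of the coding sequence windows were at a single genomic place (described below) in 5 of the 12 and in 31 of the others. Reads of mRNA were counted over whole exons, so that a longer 3′ UTR adds counted bases. The part of either in the mRNA counts was not tested. The member with the most mRNA was *Hist1h1c*, whose 3′ UTR continues 840 bases beyond the 16 stem-loop bases.

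The replication-independent histone variants, whose mRNAs are mostly polyadenylated, had a median ratio of -1.08 over 9 genes. *H2afz*, which marks promoters, was at -1.08, and *H3f3a* and *H3f3b*, which encode the variant H3.3, were at -0.65 and -1.80. The highest ratio of the 9 was that of *H2afx*, which encodes the variant phosphorylated at DNA breaks: it was 1.40, above 98.72% of all genes. *H2afx* was also the only gene of the variant list with a stem-loop match. Of the 13 matching genes outside the Hist symbols, 8 besides *H2afx* were in the RPF table, and their ratios were spread from above 2.91% to above 79.35% of all genes, with a median of 47.7%.

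Many histone coding sequences are nearly identical, and the authors kept only reads with a mapping quality of at least 10, which removes reads that align equally well to several places. The share of 31-base windows of the counted coding sequence that occur at a single place in GRCm38 had a median of 81.7% in H1, 22.0% in H2A, 20.0% in H4, 15.0% in H2B and 9.81% in H3 genes, and it was at least 50% for 14 members. Footprint levels of members with few such windows can therefore be too low, and levels can be compared between members only with this in mind. Counts of mRNA reads, which passed the same limit but were counted over whole exons, can also be too low. The part of this in the ratios of RPF to mRNA was not tested. *Hist1h2bc* had no such window and is the member that the RPF table does not list. *Hist2h3c2*, also with none, had 0.838 to 2.13 normalized RPF counts per clone, and *Hist1h2bk*, with 0.344% unique windows, had a mean of 13.6. Across the 49 members with a coding sequence and footprints, Spearman's rho between mean RPF and the number of unique windows was 0.426, as a description of genes that share libraries and sequence. High uniqueness did not by itself go with many footprints: *Hist1h1t*, a testis H1 gene with 100% unique windows, had 0.838 to 5.04 normalized RPF counts, and *Hist1h2aa*, with 86.0%, had a mean of 8.54.

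**Figure D2:**
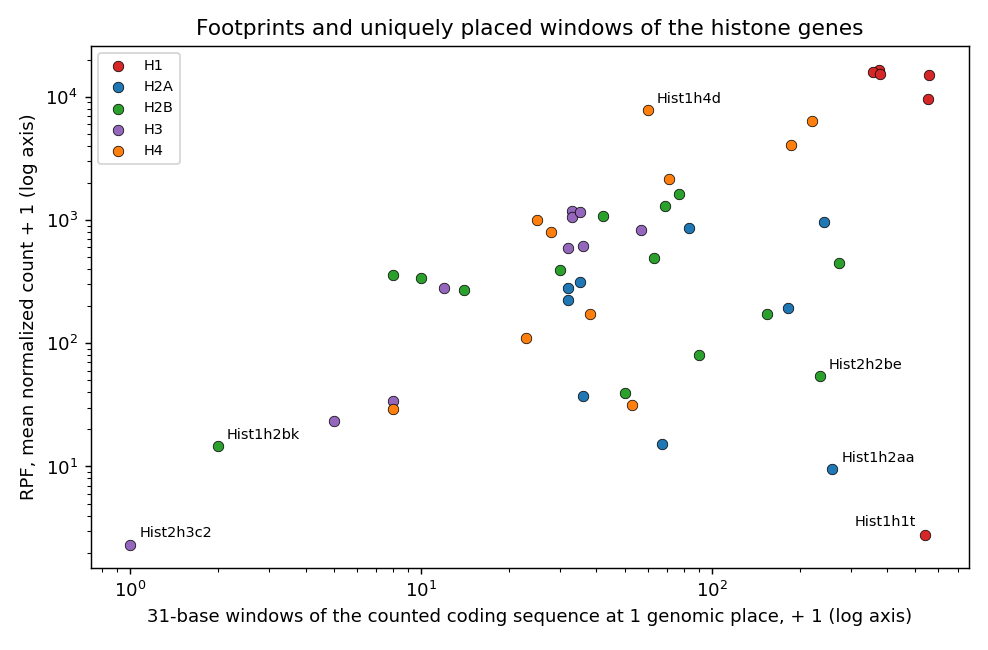
Mean normalized RPF count plus 1 (y axis) against the number of 31-base windows of the counted coding sequence that occur at 1 place in the genome, plus 1 (x axis), both on log axes, for 49 members coloured by class. The 5 H1 genes with many footprints lie at the upper right, Hist2h3c2 with no unique window at the lower left, and Hist1h1t and Hist1h2aa low despite many unique windows.

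Per kilobase of counted coding sequence, histone genes were among the most densely footprinted genes of these cells. Of 9743 genes with a length, *Hist1h4d* ranked 9th (30931 normalized RPF counts per kilobase), *Hist1h1c* 11th (28607), *Hist1h1d* 12th (26334), *Hist4h4* 13th (25330) and *Hist1h1e* 14th (25237). In all, 9 members were in the highest 1% and 38 lay above the median of all genes (164 per kilobase). Together the members held 1.21%, 1.50% and 2.19% of the summed RPF table in R98S clones 11, 13 and 35, and 2.38%, 1.57% and 2.04% in WT clones 28, 29 and 36. Of the summed mRNA table they held 0.00463% to 0.0174%. H1 genes alone took 0.704% to 1.66% of the RPF table, and H4 genes 0.267% to 0.441%.

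Next, R98S and WT clones were compared for each member. Changes were tested with limma on log2(normalized count + 1) over all genes with a mean of at least 10, and an adjusted p (Benjamini-Hochberg over all genes tested) under 0.1 was called a change. For mRNA, 12 members could be tested. mRNA of 3 members rose in R98S clones, against 3.03% of all 11344 genes tested, and that of none fell (against 3.91%) with limma, edgeR or DESeq2. At an unadjusted p under 0.05, 5 members were higher and none lower (41.7% of the members tested, against 17.9% of all genes). The members' median log2 fold change was 0.79, compared with 0.01 over all genes. This median holds only for the 12 members above the limit on mRNA: over the 48 members with any mRNA read it was -0.01, compared with 0.06 over the 21260 genes with a read, most of these members having few reads. In 6 of the 12 members all 3 R98S values lay above all 3 WT values, against 11.9% of all genes, and in none all below (11.6%). For a single gene, the smallest p an exact permutation test can reach with 3 against 3 clones is 0.1.

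*Hist1h1c* encodes the linker histone H1.2 and had by far the most mRNA of the members. R98S clones 11, 13 and 35 held 1885, 1158 and 2074 normalized mRNA counts, whereas WT clones 28, 29 and 36 held 1002, 348 and 708. All R98S clones were higher than all WT clones, and WT clone 29 was the lowest. The log2 fold change was 1.40 (standard error 0.37, adjusted p = 0.0750, limma). Its RPF showed no such separation: it was 11107, 14525 and 20510 in R98S clones and 22627, 12169 and 18443 in WT clones, and the groups overlapped (log2 fold change -0.21, standard error 0.29, adjusted p = 0.731, limma).

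*Hist1h2bc*, an H2B gene, had the largest mRNA difference among the members. Its normalized mRNA counts were 229, 148 and 194 for R98S clones 11, 13 and 35 but 72.5, 10.7 and 58.8 for WT clones 28, 29 and 36. The WT value farthest from the others was again that of clone 29. The log2 fold change was 2.34 (standard error 0.61, adjusted p = 0.0727, limma), and without WT clone 29 it was 1.51 with an adjusted p of 0.0418 (limma). In *Hist2h2be*, whose values by clone are given above, the R98S clones were all higher for mRNA (log2 fold change 0.89, standard error 0.24, adjusted p = 0.0743, limma), whereas the mean RPF differed by less than the clone spread (52.9 ± 5.32 in R98S, 53.0 ± 8.05 in WT clones, SD, n = 3).

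**Figure D3:**
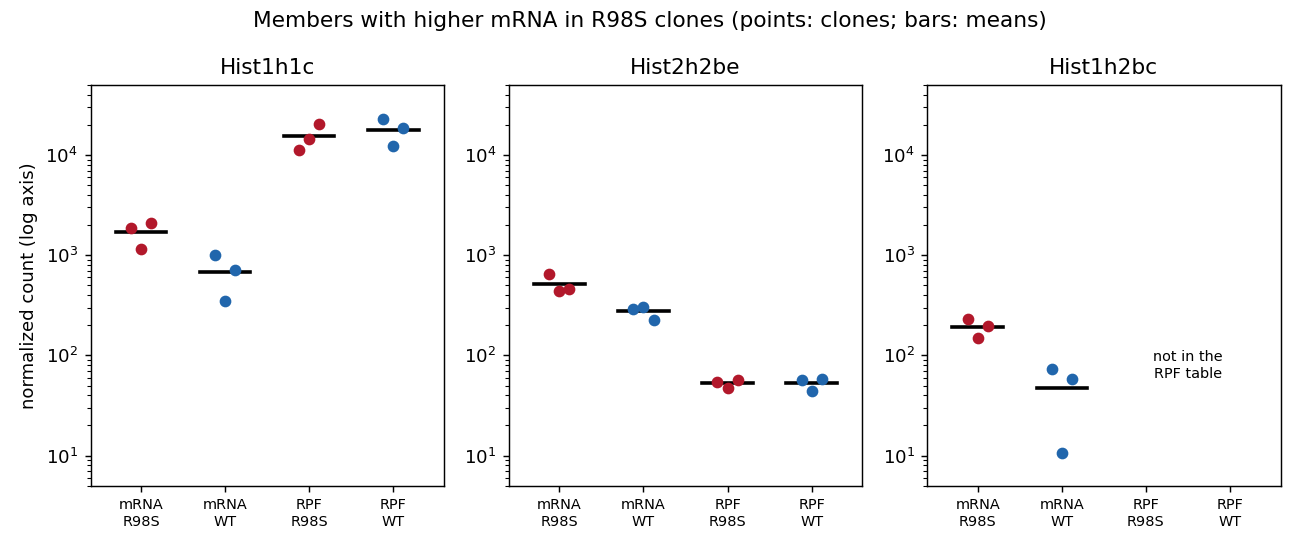
Normalized counts (log axis) of mRNA and RPF for Hist1h1c, Hist2h2be and Hist1h2bc; points are single clones, 3 R98S (red) and 3 WT (blue), and bars are group means. R98S and WT mRNA values do not overlap in any of the 3 genes, while RPF values overlap in Hist1h1c and Hist2h2be; Hist1h2bc is not in the RPF table.

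These 3 mRNA calls were close to the threshold. The *Hist1h1c* call was lost without R98S clone 11 or 35 or WT clone 29 or 36 (adjusted p 0.0255 to 0.230 over the 6 omissions, limma), that of *Hist1h2bc* without R98S clone 11, 13 or 35 or WT clone 36 (0.0329 to 0.224), and that of *Hist2h2be* without R98S clone 11 or 13 or WT clone 29 or 36 (0.0673 to 0.308). The number of called members was accordingly 0 without R98S clone 11 or WT clone 36, 1 without R98S clone 13 or 35 or WT clone 29, and 3 without the shallow library of WT clone 28. Calls over all genes moved as well, from 344 higher in the main fit. They were 130, 133 and 377 without R98S clones 11, 13 and 35, and 491, 286 and 168 without WT clones 28, 29 and 36.

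The other 3 members without overlap did not pass the test. *Hist1h1d* (H1.3) had 29.4, 30.3 and 18.1 normalized mRNA counts in R98S clones and 10.7, 14.0 and 14.9 in WT clones. *Hist1h2be*, an H2B gene, had 44.5, 58.1 and 55.0 against 32.2, 24.7 and 24.3, and *Hist3h2a*, an H2A gene on chromosome 11, had 26.2, 32.8 and 18.9 against 13.4, 12.4 and 9.40. Their adjusted p-values were 0.319, 0.182 and 0.240 (limma). Annotated exons of *Hist1h2be* overlap those of *Hist1h1e* over up to 816 bases, and those of *Hist3h2a* overlap *Trim17* over 708 bases on the same strand, so part of their mRNA reads cannot be assigned with certainty.

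For 5 of the 12 members the highest mRNA value was instead that of WT clone 28. *Hist1h1a* had 34.9 normalized counts there, against 1.72 to 10.7 in the other clones. *Hist1h1b* (H1.5) stood at 37.6 in WT clone 28 and 4.70 to 14.8 elsewhere, *Hist1h1e* (H1.4) at 53.7 and 8.19 to 15.5, *Hist1h2bg* (H2B) at 40.3 and 5.73 to 23.5, and *Hist1h4i* (H4) at 75.2 and 14.0 to 60.3. None of these 5 passed the test (adjusted p from 0.372 to 0.978, limma). Among the 39 members under 10 mRNA counts, 22 also had their highest value in WT clone 28; summed over all 39, this was 140 normalized counts there, from 52 reads, and 45.4 to 82.6 in the other clones. The part of its smaller read number in these values was not tested.

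Summed by class, the mRNA of H1 genes amounted to 1761 ± 476 normalized counts for R98S and 759 ± 371 for WT clones (SD, n = 3), that of H2A genes 44.5 ± 10.3 and 23.0 ± 5.91, and that of H2B genes 783 ± 157 and 393 ± 69.5. In these 3 classes all R98S clones were above all WT clones. The H2B sum consists mostly of *Hist2h2be* (mean 516 in R98S and 275 in WT clones) and *Hist1h2bc* (190 and 47.3). Both were called above, so that the separation of the H2B sum is no independent observation. On average, the H2A sum consists mostly of *Hist3h2a*, whose values by clone are given above. That gene was without overlap, did not pass the test and shares annotated exon bases with *Trim17*. The mRNA of every other H2A gene overlapped between the genotypes. Separation of the H2A sum is therefore no independent observation either. The sums of H3 (25.7 ± 6.51 and 25.4 ± 14.0) and H4 genes (70.0 ± 10.2 and 71.7 ± 54.3) overlapped between the genotypes. The H1 sum consists mostly of *Hist1h1c*, and without that gene the log2 ratio of R98S to WT changed from 1.21 to -0.40. Of the remaining H1 genes, *Hist1h1a*, *Hist1h1b* and *Hist1h1e* were highest in the shallow library of WT clone 28 (34.9, 37.6 and 53.7 normalized counts). *Hist1h1d* was instead higher in every R98S clone. The value of -0.40 therefore depends on WT clone 28 and does not show lower mRNA of these genes in R98S clones. The H4 log2 ratio changed from -0.03 to 0.79 without WT clone 28. Differences in transcribing cells, in RNA per cell and in the polyadenylated share cannot be told apart in these poly(A)-selected bulk libraries.

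Few differences of histone footprints passed the test. Of 47 members tested for RPF, 1 fell in R98S clones, against 4.62% of all 9580 genes tested, and none rose (against 3.13%) with limma, edgeR or DESeq2. At an unadjusted p under 0.05, 6 members were lower and 1 was higher, which is 14.9% of the members tested and below the 20.3% of all genes. The log2 fold change was below 0 for 33 of the 47 (against 48.8% of all genes), with a median of -0.27 compared with 0.01 over all genes. The size of this median depended on single clones: it was -0.09 without R98S clone 11, -0.16 without WT clone 28 or 36, -0.43 without R98S clone 35 and -0.49 without WT clone 29. The direction was shared by most members of 3 classes: 5 of 5 H1 genes (median -0.53), 8 of 9 H3 genes (median -0.43) and 11 of 14 H2B genes (median -0.27) were below 0. H2A genes were divided, with 5 of 9 below 0 (median -0.29), and H4 genes were centred on 0 (4 of 10 below 0, median 0.02). Members of a class share libraries and similar sequences and are not independent. Groups did not overlap for 2 members higher and 2 members lower in R98S clones, against 12.5% and 12.8% of all genes.

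**Figure D4:**
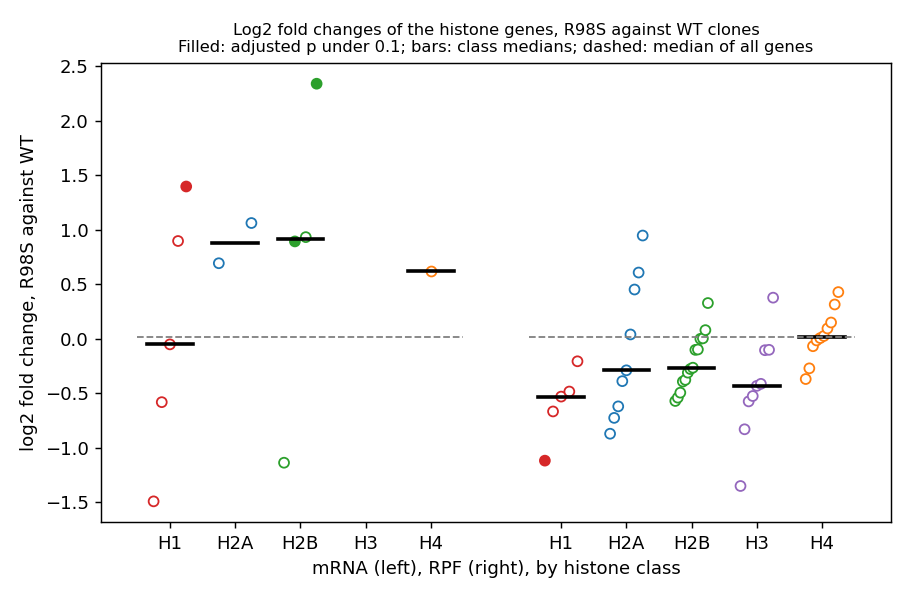
Log2 fold change of R98S against WT clones (y axis) of single members, by histone class, for mRNA (left, 12 members, none in H3) and RPF (right, 47 members); filled points passed the adjusted p of 0.1 (limma), bars are class medians and dashed lines medians of all genes tested. The 3 filled mRNA points lie above 0 and the only filled RPF point, Hist1h1b, lies below it.

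The member that fell was *Hist1h1b*, the linker histone H1.5. It had 6327, 8006 and 14997 normalized RPF counts in R98S clones 11, 13 and 35 and 26642, 14598 and 19956 in WT clones 28, 29 and 36. R98S clone 35 was slightly above WT clone 29, so the groups overlapped. The log2 fold change was -1.12 (standard error 0.33, adjusted p = 0.0856, limma), and the call was lost without R98S clone 11 or 13 or WT clone 28 or 36 (adjusted p 0.0219 to 0.297 over the 6 omissions, limma) and with edgeR (adjusted p = 0.102). The number of members called lower was 8 without R98S clone 35, 3 without WT clone 29 and 0 without any other single clone, and it was 2 with edgeR and 4 with DESeq2. Calls over all genes moved as well: 443 were lower in the main fit, 472 with edgeR and 626 with DESeq2. They were 642 without R98S clone 35, 388 without WT clone 29 and 164 to 231 without any other single clone. The remaining abundant H1 genes had mean RPF of 7950 (*Hist1h1a*), 15381 (*Hist1h1c*), 13480 (*Hist1h1d*) and 11872 (*Hist1h1e*) in R98S clones and of 11313, 17746, 18436 and 18412 in WT clones, with log2 fold changes from -0.67 to -0.21 and adjusted p-values from 0.235 to 0.731 (limma).

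Among core histone genes, the members without overlap between genotypes are named here after their values were seen. *Hist1h3e*, an H3 gene, had 525, 921 and 1112 normalized RPF counts in R98S and 1806, 1211 and 1382 in WT clones (log2 fold change -0.83, adjusted p = 0.119, limma). *Hist2h2ab*, an H2A gene on chromosome 3, had 156, 145 and 149 against 254, 212 and 229 (log2 fold change -0.62, adjusted p = 0.103, limma). It was past the threshold with edgeR (adjusted p = 0.0937) and DESeq2 (adjusted p = 0.0862). In the other direction, *Hist1h2ac*, an H2A gene, had 304, 355 and 415 in R98S and 295, 93.7 and 223 in WT clones (log2 fold change 0.95, adjusted p = 0.164, limma), and without WT clone 28 the adjusted p was 0.0950. *Hist1h4a*, an H4 gene, had 1341, 1064 and 1004 against 846, 694 and 999 (log2 fold change 0.43, adjusted p = 0.252, limma). Only 10.2% of the windows of *Hist1h2ac*, 10.8% of those of *Hist1h4a* and 10.6% of those of *Hist1h3e* were unique, compared with 60.1% for *Hist2h2ab*.

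Other core histone genes with many footprints overlapped between the genotypes and did not pass the test. *Hist1h4d* had 5182, 7096 and 8180 normalized RPF counts in R98S and 10769, 7296 and 8244 in WT clones (adjusted p = 0.401, limma). *Hist4h4*, the H4 gene on chromosome 6, had 4870, 5817 and 7998 against 8397, 3403 and 7813 (adjusted p = 0.993, limma), and 99.1% of its windows were unique. In class H2B, *Hist1h2bm* had 972, 1285 and 2049 against 2224, 1412 and 1784, and *Hist1h2bb* 1066, 1417 and 1516 against 1624, 1140.0 and 1048. These ranges overlap in each gene. For H2A, the highest RPF levels were those of *Hist3h2a* (844, 1480 and 1123 against 870, 451 and 1008) and *Hist1h2ak* (633, 853 and 1133 against 854, 712 and 926). For H3, besides *Hist1h3e*, *Hist1h3c* had 742, 1094 and 1619 against 1407, 898 and 1282, and *Hist1h3d* 789, 779 and 1164 against 1418, 1073 and 1153. Adjusted p-values of these 6 genes were 0.276 to 0.938 (limma).

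The summed RPF overlapped between the genotypes in every class. It was 58461 ± 22474 normalized counts for H1 genes in R98S and 86308 ± 25498 in WT clones (SD, n = 3), 21838 ± 3538 and 23083 ± 6672 for H4, 6066 ± 1890 and 7191 ± 1701 for H2B, 4924 ± 1383 and 6583 ± 1631 for H3, and 3402 ± 682 and 3141 ± 841 for H2A.

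Histone footprints varied between clones of one genotype, and many members moved together. WT clone 28 had the highest RPF of the 6 clones for 28 of 47 members, and WT clone 29 the lowest of the WT clones for 43. Among R98S clones, clone 35 was highest for 35 members and clone 11 lowest for 31. As a median over members, log2(RPF + 1) deviated from the mean of the 6 clones by -0.35, -0.17 and 0.21 in R98S clones 11, 13 and 35 and by 0.47, -0.31 and 0.19 in WT clones 28, 29 and 36, whereas over all genes the medians were 0.0015 to 0.0072. The range within either genotype was thus larger than the median difference between the genotypes. For 25 S phase genes the same medians were -0.13, -0.08 and -0.07 in R98S clones and 0.23, 0.13 and -0.18 in WT clones, so that the highest clone was WT clone 28 in both sets, while WT clones 29 and 36 were in opposite order.

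**Figure D5:**
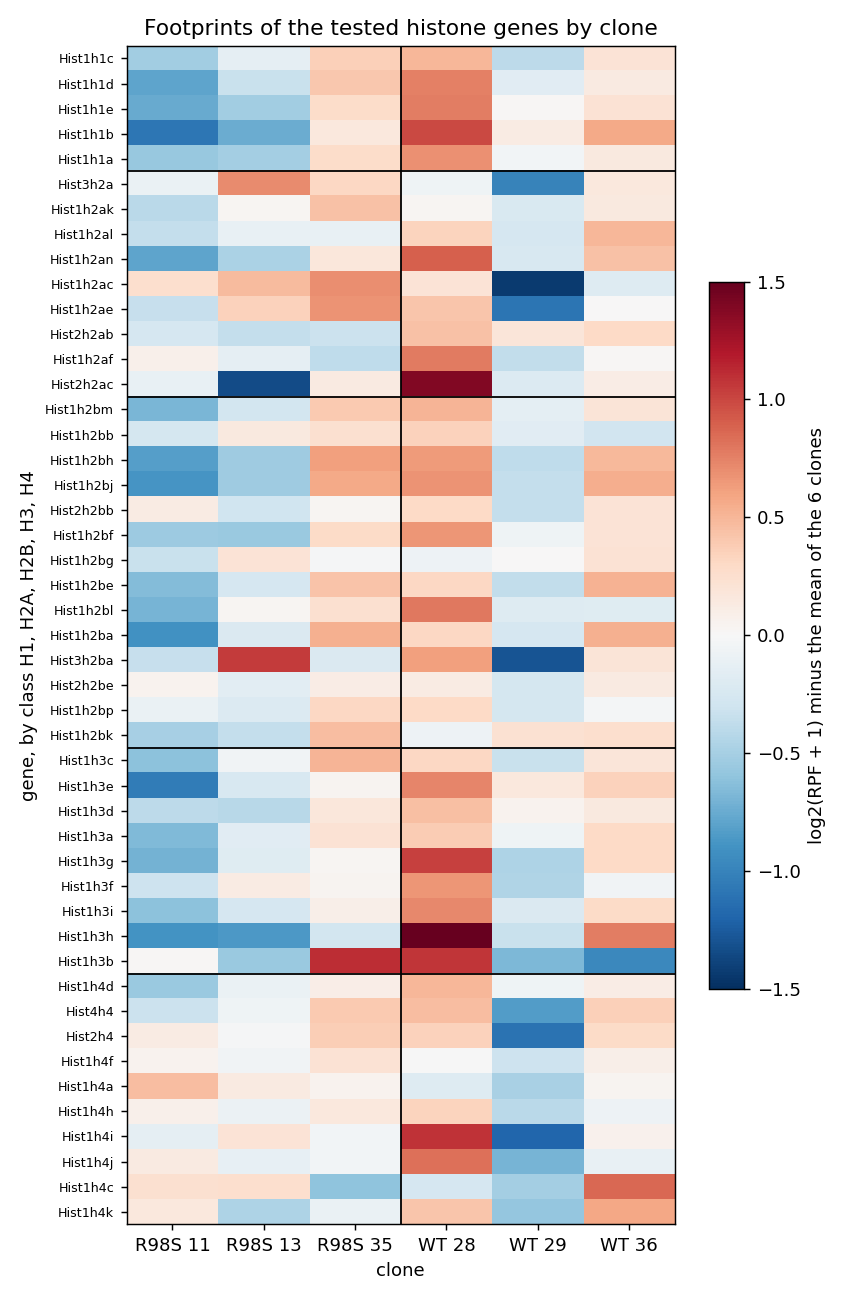
Deviation of log2(RPF + 1) from the mean of the 6 clones (colour) for the 47 tested members (rows, grouped by class and ordered by mean RPF) in each clone (columns, R98S left and WT right). WT clone 28 is mostly red and WT clone 29 and R98S clone 11 are mostly blue, with medians over members of 0.47, -0.31 and -0.35.

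Translation efficiency (TE), the log2 ratio of RPF to mRNA within a clone, could be tested for the 5 members that reached 10 normalized counts in each of the 12 libraries. All 5 had lower mean TE in R98S clones (50.2% of all genes did), but 0 passed the adjusted threshold with limma, edgeR or DESeq2, against 0.0221% of all 9043 genes tested (2 genes). At an unadjusted p under 0.05 there were 3 members and 710 of all genes. In 4 of the 5 members the TE of every R98S clone was below that of every WT clone, against 7.36% of all genes. TE of *Hist1h1c* was 2.56, 3.65 and 3.31 in R98S clones 11, 13 and 35 and 4.50, 5.12 and 4.70 in WT clones 28, 29 and 36 (log2 fold change -1.60, standard error 0.48, adjusted p = 0.629, limma). For *Hist2h2be* it was -3.55, -3.20 and -2.98 against -2.33, -2.78 and -1.95, a log2 fold change of -0.89. For *Hist1h2be* it was 2.17, 2.19 and 2.94 against 3.58, 3.27 and 4.18 (-1.24), and for *Hist1h4i* 1.22, 2.05 and 1.94 against 2.12, 2.19 and 2.69 (-0.60).

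The fifth, *Hist1h1d*, had 8.16, 8.58 and 10.02 against 11.08, 9.79 and 10.03, which overlapped (log2 fold change -1.38). Its standard error of 4.05 stands far from those of the others, and it was 0.48 in a fit without the trend of the variance on the mean ratio, with an adjusted p of 0.617 (limma). *Hist1h1c* and *Hist2h2be* were among the 3 members called for mRNA, and TE shares those mRNA values, so that their TE values are no independent observation. TE of *Hist1h2be* and *Hist1h4i* shares their mRNA values in the same way (mRNA log2 fold changes 0.93 and 0.62, RPF -0.31 and 0.03). In *Hist1h2be* only 3.09% of the windows were unique, and its annotated exons overlap those of *Hist1h1e*. The poly(A)-selected mRNA libraries are depleted of transcripts without a poly(A) tail, so that the TE of a member sets its footprints against a part of its mRNA; the size of that part in each clone was not measured.

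Genes that act on histone mRNA were read from the same fits, in which few genes of any kind were called. Of all genes tested, 3.03% were called higher and 3.91% lower for mRNA, 3.13% and 4.62% for RPF, and 0.0% and 0.0221% for TE. Of 27 genes for histone mRNA synthesis and 3′ processing, none was called for mRNA (median log2 fold change 0.05) and 1 of 26 tested was called higher for RPF, namely *Ncbp1*, a subunit of the cap-binding complex: 1696, 1540 and 1718 normalized RPF counts in R98S and 975, 916 and 969 in WT clones (log2 fold change 0.79, standard error 0.16, adjusted p = 0.0232, limma). *Slbp* mRNA was 2450, 2298 and 2451 in R98S clones and 3222, 2608 and 2445 in WT clones (log2 fold change -0.19, adjusted p = 0.602, limma). Its RPF was 958, 943 and 934 in R98S and 1290, 1386 and 1191 in WT clones. The groups did not overlap for *Slbp* footprints, but the log2 fold change of -0.44 did not pass the test (standard error 0.16, adjusted p = 0.148, limma). None of the 24 genes for translation and decay of histone mRNA was called in mRNA, RPF or TE.

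Among 9 tested histone variants, *H1f0*, the linker histone of quiescent and differentiated cells, rose in R98S clones for mRNA (30561, 26122 and 25382 against 19053, 12070 and 16209; log2 fold change 0.81, standard error 0.21, adjusted p = 0.0661, limma) and for RPF (7802, 7825 and 5469 against 4993, 2466 and 3686; log2 fold change 0.96, standard error 0.26, adjusted p = 0.0724, limma). Its RPF difference was opposite in sign to that of all 5 abundant replication-dependent H1 genes; the difference between them was not tested. *H2afx*, the variant with a stem-loop match, had 2855, 2462 and 2744 normalized mRNA counts in R98S and 2422, 1463 and 1470 in WT clones (log2 fold change 0.63, adjusted p = 0.158, limma), without overlap. Its RPF overlapped, and its TE was lower in every R98S clone (log2 fold change -0.91, adjusted p = 0.629, limma). *H2afz*, *H3f3a* and *H3f3b* had log2 fold changes between -0.16 and 0.13 in mRNA and RPF, and none was called.

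Of 23 histone chaperones, 1 was called higher for mRNA (against 3.03% of all genes) and none for RPF or TE. *Nasp*, which carries H3 and H4, rose for mRNA (log2 fold change 0.57, standard error 0.16, adjusted p = 0.0881, limma) and had an RPF log2 fold change of 0.31 (adjusted p = 0.352, limma). Of 25 S phase genes, 1 was called higher and 1 lower for mRNA (against 3.03% and 3.91% of all genes), and 1 lower for RPF (against 4.62%). *Ccna2*, the cyclin of S phase, rose for mRNA (log2 fold change 1.00, standard error 0.24, adjusted p = 0.0516, limma), with an RPF log2 fold change of -0.12 (adjusted p = 0.786, limma). *E2f2*, a transcription factor of the cell cycle, fell for mRNA (log2 fold change -1.18, adjusted p = 0.0172, limma) and for RPF (-1.13, adjusted p = 0.0490, limma). For RPF, 19 of the 25 S phase genes were below 0 (against 48.8% of all genes), with a median of -0.14, compared with -0.27 for the histone members. The share of cells in S phase was not measured in these libraries, and its part in the histone values was not tested.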

How the data were processed

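For each assay, the authors deposited 1 table of signal values, gene counts divided by DESeq2 size factors. The authors aligned reads to mm10 with TopHat2 (2.0.11 per the labels), required a mapping quality of at least 10, counted mRNA reads in exons, and counted RPF in coding sequences without the first 15 and last 5 codons. Every gene in the RPF table has reads in all 6 libraries. Whole reads were recovered from 100% of values and used with edgeR 4.0.16 and DESeq2 1.42.0 as alternatives.

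Here, log2(value + 1) was compared with limma 3.58.1 (R 4.3.3, variance trend, Benjamini-Hochberg over all genes tested, threshold 0.1). TE was computed by clone, whose number both libraries carry. Deviations from the genotype means of a clone's libraries correlated at 0.218 to 0.681. Stem-loops and unique windows were searched exactly in GRCm38; windows spanning a splice junction (Hist1h2bp) were counted as unique. The fits were tested on simulated data.

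Named genes were called members, the 2 highest of each class in RPF and in mRNA, and called list genes; others were named after their values were seen. Members and gene lists were chosen with earlier results of these data known. The limma p-values set the difference between genotypes against the spread between clones, with variances moderated over all genes.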

Additional observations from a re-analysis of the deposited data

How the results depend on the processing

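Directions of the 3 mRNA calls and of Hist1h1b RPF were kept with every pseudocount, filter, scaling, tool and omitted clone tried. Weighting libraries by estimated quality raised the members called to 8 higher for mRNA, 14 lower for RPF and 3 lower for TE (all genes called: 2959 for mRNA, 1799 for RPF and 796 for TE), and the cause was not tested. Members called lower for RPF were 2 with edgeR and 4 with DESeq2 (all genes called lower: 472 and 626). Over omissions of single clones, members called ranged from 0 to 3 (mRNA higher), 0 to 1 (RPF higher), 0 to 8 (RPF lower) and 0 to 0 (TE lower). Calls over all genes ranged from 130 to 491 (mRNA higher), 65 to 506 (RPF higher), 164 to 642 (RPF lower) and 0 to 2 (TE lower). The difference of the median log2 RPF/mRNA ratio from all genes was 7.26 with a pseudocount of 5, 8.22 per kilobase, and 8.76 to 9.06 over omissions. The summed mRNA log2 ratio of H1 was -0.40 without its highest member, and that of H4 ranged from -0.35 to 0.79 over omissions.

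Signs turned for RPF of Hist1h4i (-0.24 with edgeR, -0.25 with DESeq2, -0.041 with weights), Hist2h2be (-0.0010, -0.0051 and -0.084), Hist4h4 (-0.065, -0.070 and -0.28) and Hist1h2ak (-0.16 with weights), and for Hist1h1b mRNA (0.89 with weights); none of these was called. Over omissions, signs also turned within -0.76 to 0.62 (Hist1h1b mRNA), -0.46 to 0.006 (Hist1h1c RPF), -0.17 to 0.25 (Hist1h2ak), -0.046 to 0.27 (Hist1h2bb), -0.38 to 0.18 (Hist1h3c), -0.56 to 0.57 (Hist1h4i), -0.13 to 0.087 (Hist2h2be) and -0.41 to 0.24 (Hist4h4).

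TE without the clone pairing (no replicate block) called 0 members, and so did the fit without the variance trend, which was chosen after seeing the data. R98S and WT clones share no numbers and could not be paired with each other. No H3 member has at least 50% unique windows, so that alternative gave no value for H3. Most members have few mRNA reads, which limits the precision of their mRNA values and ratios.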
